A study of Mus musculus with 24 samples.

Results

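The tunicamycin response of wild-type mouse astrocytes was described from 6 of the 24 RNA-seq libraries of a study of the kinase PERK in neurons and astrocytes. The members were chosen by label: 3 libraries of astrocytes treated with tunicamycin (TM) and 3 of their vehicle controls, over all genes. The study holds 8 groups of 3 libraries, made by crossing the cell type (cultured neurons or astrocytes), the Perk genotype and the treatment. All cultures came from mice whose Perk gene carries loxP sites on both copies (Perk loxP/loxP), the wild-type (WT) cultures included. WT cultures received a lentivirus carrying an inactive recombinase (ΔCre), and Perk knockout (KO) cultures received a lentivirus carrying active Cre. The treated astrocytes received TM at 5 µg/mL for 24 hours from day 14 in culture per the treatment protocol (20 to 24 hours per the series' design text), and controls received an equal volume of DMSO. WT astrocytes are therefore floxed cells exposed to a virus and grown in a medium made for neurons (Neurobasal with B-27). The labels call the libraries biological replicates but do not say whether separate animals or cultures lie behind them, so p-values measure the spread between these libraries only. Perk KO astrocytes and WT neurons, 6 libraries each, served for comparison.

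Tunicamycin blocks the first step of N-linked glycosylation, the transfer of N-acetylglucosamine phosphate to dolichol phosphate by the enzyme Dpagt1, so that glycoproteins misfold in the endoplasmic reticulum (ER). Misfolded protein is sensed by 3 membrane proteins, PERK (gene Eif2ak3), IRE1 (gene Ern1) and ATF6, which together start the unfolded protein response. PERK phosphorylates the initiation factor eIF2 alpha, which lowers general translation and lets the transcription factor ATF4 be made. IRE1 splices the mRNA of Xbp1 and cleaves some other ER-bound mRNAs, and ATF6 is cut in the Golgi to release a transcription factor for ER chaperones. Astrocytes take up glutamate and potassium, make lipoproteins and cholesterol, and secrete proteins that act on synapses, and much of this work passes through the ER.

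The 6 libraries held 17712424 to 20167397 counts each, and the 18 libraries used held 16029751 to 20528126. In both groups the library numbered 1 stood apart from the other 2: the chi-square per gene between replicates was no more than 11.5 for number 2 against 3, but 32.6 to 65.1 for pairs that included number 1. Same-numbered control and TM libraries deviated together from their group means. Over all tested genes, number 1 was the highest control for 38.91% and the lowest for 38.49%. Among the TM libraries it was the highest for 43.38% and the lowest for 37.72%. Counts below of genes for which number 1 was highest or lowest are read against these shares. Eif2ak3, the gene deleted in the KO cultures, was at 25.2 to 28.1 CPM (counts-per-million units) in WT controls and at 74.4 to 105 CPM in WT TM libraries. It was at 5.97 to 7.71 CPM in KO controls and 11.5 to 15.8 CPM in KO TM libraries, so that every KO astrocyte library lay below every WT astrocyte library. The counts cover the whole gene, so they also hold transcripts that lack only the deleted part. How complete the deletion was in the KO cultures was not tested. The label astrocyte was checked against markers in the control libraries. Of 22 homeostatic astrocyte genes, 20 were measurable, and their summed level was 4091 to 6275 CPM. The ependymal gene Foxj1, at 478 to 659 CPM, and the smooth muscle actin gene Acta2, at 958 to 993 CPM, were also abundant. Markers of neurons summed to 310.3 to 345.7 CPM and of microglia to 73.27 to 235.5 CPM. Markers of radial glia and progenitors summed to 9477 to 10460 CPM, more than the homeostatic astrocyte genes, and 5962 to 7481 CPM of this was Vim, which astrocytes also express.

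Because known control elements link many ER genes to the response, the promoters of the genes the results turn on are shown first, as 160 bases before the RefSeq start of transcription (GRCm38.p6), read 5′ to 3′ on the gene's strand. Hspa5 encodes the ER chaperone BiP, Herpud1 and Sdf2l1 encode ER proteins of quality control, Ddit3 (CHOP) and Trib3 are PERK-branch targets, and Hmgcs1 is an enzyme of cholesterol synthesis. Capitals mark a match to 1 of the 5 motifs searched.
Hspa5 (chr2:34771930-34772089, plus strand): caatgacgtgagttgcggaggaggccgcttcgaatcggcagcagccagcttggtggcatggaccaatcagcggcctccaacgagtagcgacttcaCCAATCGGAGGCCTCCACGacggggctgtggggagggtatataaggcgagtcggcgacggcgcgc
Herpud1 (chr8:94386269-94386428, plus strand): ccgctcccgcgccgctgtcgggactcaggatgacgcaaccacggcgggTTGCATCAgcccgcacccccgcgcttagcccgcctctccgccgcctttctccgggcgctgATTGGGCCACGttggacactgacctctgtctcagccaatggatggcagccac
Sdf2l1 (chr16:17132384-17132543, minus strand): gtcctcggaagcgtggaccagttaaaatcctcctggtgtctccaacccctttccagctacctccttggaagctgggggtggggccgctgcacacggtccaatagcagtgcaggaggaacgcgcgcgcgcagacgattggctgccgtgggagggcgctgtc
Ddit3 (chr10:127290633-127290792, plus strand): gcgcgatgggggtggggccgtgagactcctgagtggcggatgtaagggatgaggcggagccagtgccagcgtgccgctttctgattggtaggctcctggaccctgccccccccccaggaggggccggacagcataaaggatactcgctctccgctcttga
Trib3 (chr2:152344061-152344220, minus strand): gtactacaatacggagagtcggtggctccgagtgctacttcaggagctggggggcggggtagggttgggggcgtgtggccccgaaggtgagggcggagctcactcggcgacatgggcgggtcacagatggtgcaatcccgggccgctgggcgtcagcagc
Hmgcs1 (chr13:119690191-119690350, plus strand): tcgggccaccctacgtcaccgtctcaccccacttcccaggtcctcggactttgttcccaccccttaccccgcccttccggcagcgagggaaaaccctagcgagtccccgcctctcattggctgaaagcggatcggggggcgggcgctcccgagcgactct
The capitals in Hspa5 are an ER stress response element (ERSE), and those in Herpud1 are first a C/EBP-ATF element on the opposite strand and then an ERSE-II core. No letters of the other stretches matched, while the Trib3 window held a C/EBP-ATF element 15 to 22 bases after its start, outside the stretch shown.

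The ERSE was searched as CCAAT and CCACG separated by 9 bases, on both strands, from 250 bases before to 50 after each start. It was present in 19 of the 10766 tested genes with a RefSeq window (0.176%). Of those 19 genes, 13 rose with TM and all 13 rose over 2-fold, which makes 1.71% of the 762 windows of such genes. It was found in 2 of the 1811 windows of genes that fell over 2-fold (0.11%), and in none of the 2067 windows of genes that rose by less than 2-fold. The elements of the ER proteins among them are shown in order of response, read in the direction of the motif, with the 9 separating bases in lower case.
Derl3 (chr10:75893242-75893260, minus strand): CCAATggggaagtcCCACG
Creld2 (chr15:88819520-88819538, minus strand): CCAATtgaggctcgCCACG
Hsp90b1 (chr10:86705638-86705656, minus strand): CCAATcgcaaggagCCACG
Hsp90b1 (chr10:86705533-86705551, plus strand): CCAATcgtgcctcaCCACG
Hspa5 (chr2:34772025-34772043, plus strand): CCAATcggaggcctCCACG
Dnajc3 (chr14:118937827-118937845, plus strand): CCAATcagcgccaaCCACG
Syvn1 (chr19:6046532-6046550, plus strand): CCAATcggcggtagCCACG
Calr (chr8:84847075-84847093, plus strand): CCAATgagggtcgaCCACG
Pdia6 (chr12:17266491-17266509, plus strand): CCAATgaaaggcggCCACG
Canx (chr11:50325800-50325818, minus strand): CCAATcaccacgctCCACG
The separating bases differed between all of these elements. The Creld2 element lies between 2 genes that face away from each other, Creld2 and the mannosyltransferase gene Alg12, and both rose, by 5.33 and 2.15 on the log2 scale. The other genes with the element that rose were Zfp57, Xlr3b and Hnrnpa3, Spats2l and Acacb fell, and Xlr3a, Adcy3, Pan2 and Gm6566 did not pass the test. Xlr3a and Xlr3b are near-identical copies, so their counts are uncertain, and Xlr3b lost its call without the libraries numbered 1 (edgeR adjusted p = 0.0669).

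Of the other motifs, the ERSE-II core was rarer than the ERSE, and the rest were in a larger share of all windows. The ERSE-II core, ATTGGNCCACG, was in 9 of all windows and in 6 of the 762 of genes that rose over 2-fold (0.787%). It was in 3 of the 2067 windows of genes that rose by less than 2-fold. It was in 0 of the 1811 windows of genes that fell over 2-fold and 0 of the 4879 of genes not called. The UPRE core, TGACGTGG, was in 1.1% of all windows, 2.62% of those of genes that rose over 2-fold and 0.939% of those of genes that fell over 2-fold. The C/EBP-ATF element, TGATGNAA, was in 2.77%, 6.56% and 2.43% in the same order. The sterol element, ATCACNCCAC, was in 0.195%, 0.262% and 0.11%. The ERSE, ERSE-II core and UPRE core share the letters CCACG, so 1 stretch could match more than 1 of them. By function, the ERSE was in 4 of the 12 windows of genes for BiP, GRP94 and their cochaperones (33.3%). The C/EBP-ATF element was in 6 of 16 windows of PERK-ATF4-CHOP targets (37.5%) and 5 of 12 of cytosolic aminoacyl-tRNA synthetases (41.7%). No sterol element was found in 17 windows of genes of cholesterol synthesis and uptake.

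**Figure D1:**
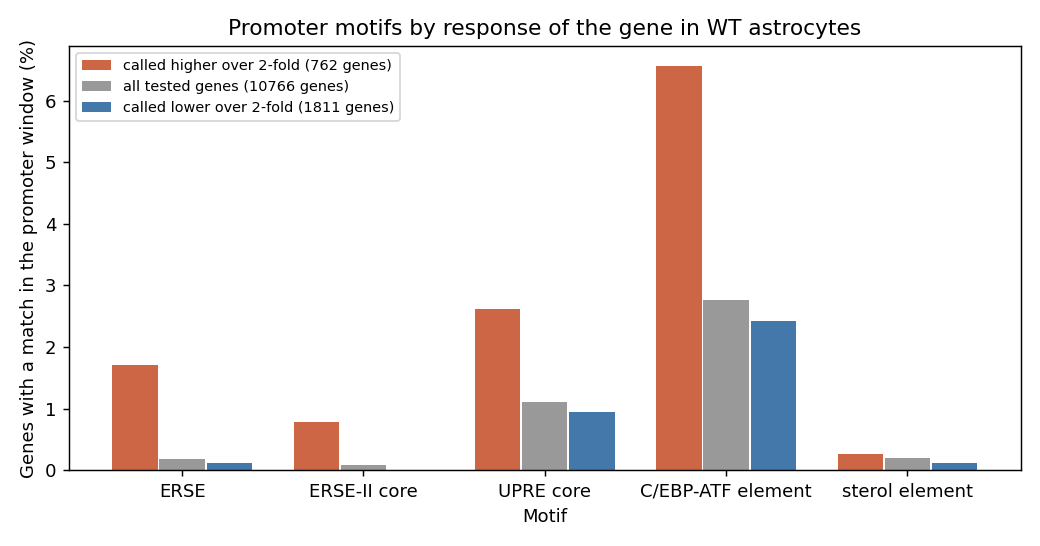
Share of promoter windows (%, y axis) that hold each of 5 motifs (x axis), for all tested genes, genes that rose over 2-fold and genes that fell over 2-fold with TM. The C/EBP-ATF element reached 6.56% in genes that rose over 2-fold against 2.77% in all tested genes, and the ERSE 1.71% against 0.176%.

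Across all genes the response was broad and nearly even in direction. Of 14907 genes tested, 3728 rose and 4131 fell at an adjusted p under 0.05 in edgeR's quasi-likelihood test, which is 25% and 27.7% of the genes tested, and the median log2 fold change was -0.01. "Rose" and "fell" below are used for genes past that threshold, and list counts are read against these shares. Large changes were more often decreases: 1066 genes (7.15%) rose over 2-fold and 2511 (16.8%) fell over 2-fold. The 3 TM libraries did not overlap the 3 controls for 9267 genes (62.2%). In the authors' deposited table, 7935 genes had an adjusted p under 0.05, and 7539 of the 7859 genes called here (95.93%) were among them. In bulk RNA, fewer cells of a type and less RNA per cell cannot be told apart, for every change below.

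The ER chaperones rose the most, and BiP mRNA became the most abundant protein-coding mRNA per kilobase. Hspa5 was at 1142, 1623 and 1830 CPM in controls and at 19070, 18610 and 17020 CPM with TM. Every TM library lay far above every control, and number 1 was the lowest control and the highest TM library. The increase was 11.9-fold (log2 3.57 ± 0.21, SE, n = 3 against 3; edgeR adjusted p = 2.34e-05). Per kilobase of gene length, Hspa5 moved from rank 77 (362.2 CPM per kb) to rank 1 (4312 CPM per kb), ahead of the ferritin gene Fth1 and the mitochondrial gene mt-Co1. Hsp90b1, which encodes GRP94, the ER form of HSP90, was at 504, 463 and 465 CPM in controls and 11290, 7910 and 6634 CPM with TM. The TM libraries did not overlap the controls, and number 1 was the highest of them. It rose 18-fold (log2 4.17 ± 0.23; edgeR adjusted p = 2.01e-05), and Calr and Pdia4 also entered the first 10 ranks per kilobase.

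Among 15 genes for BiP, GRP94 and their cochaperones, 12 rose and 0 fell, with a median log2 fold change of 3.34. Sdf2l1, a BiP cochaperone that keeps misfolded protein soluble, was at 11.8, 11.4 and 12.9 CPM in controls and at 1024, 810 and 688 CPM with TM. Controls were within a narrow range and every TM library was far above them. Its rise was 69.8-fold (log2 6.12 ± 0.20; edgeR adjusted p = 7.16e-06). Dnajb9 (ERdj4), a J protein that hands misfolded clients to BiP, was at 80.7, 91.5 and 96.3 CPM in controls and at 1421, 1313 and 1223 CPM with TM, without overlap. It rose 14.7-fold (log2 3.88 ± 0.13; edgeR adjusted p = 7.16e-06). Hyou1, the nucleotide exchange factor of BiP, went from 123 to 145 CPM to 1991 to 3206 CPM (log2 4.27 ± 0.21). Dnajc3, which encodes the J protein p58IPK, went from 177 to 270 CPM to 1605 to 3006 CPM (log2 3.34 ± 0.27). The TM library numbered 1 was the highest of the 3 for all 15 genes, for all 19 disulfide isomerases and oxidases, and for all 12 oligosaccharyltransferase subunits below.

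**Figure D2:**
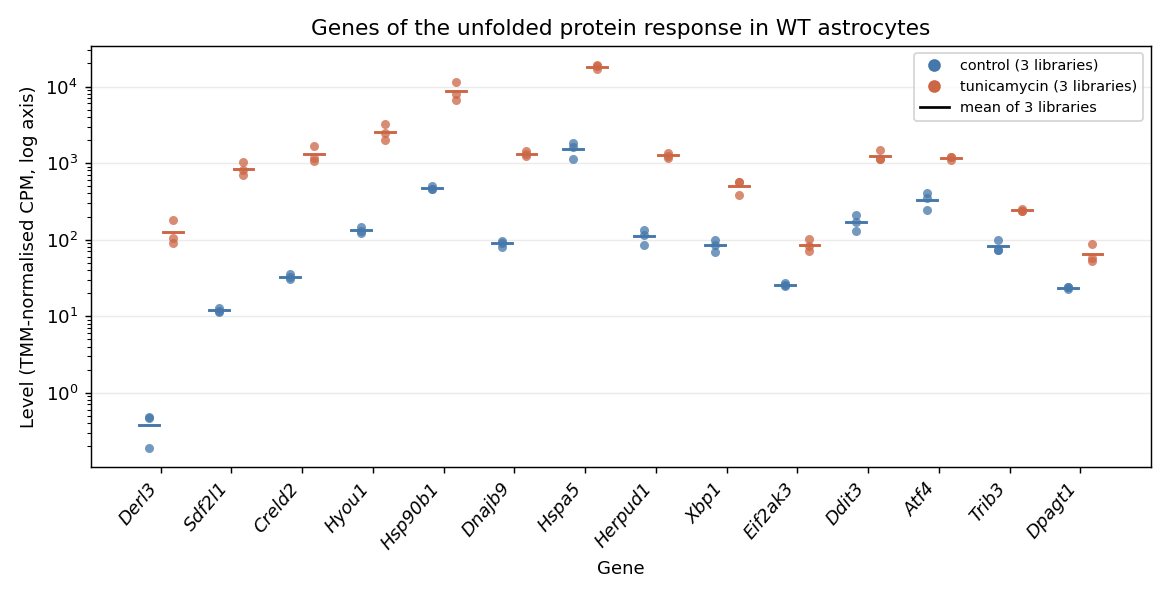
Level of ER stress genes in each WT astrocyte library (y axis, TMM-normalised CPM on a log axis; x axis, gene), with control and TM libraries as separate points. TM libraries lie above controls for each gene shown, as for Sdf2l1 with 11.4 to 12.9 CPM in controls and 688 to 1024 CPM with TM.

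Derl3, Sdf2l1 and Creld2 had the largest rises among the protein-coding genes whose libraries averaged 100 counts or more and did not overlap between groups. Derl3, which encodes derlin-3 of the retrotranslocation machinery, was at 0.19, 0.482 and 0.469 CPM in controls and at 178, 106 and 89 CPM with TM. It was close to undetected in all controls and clear in all TM libraries, a log2 fold change of 8.35 ± 0.41 (edgeR adjusted p = 1.67e-05). Creld2, an ER-resident protein with disulfide isomerase features, was at 35.1, 30.2 and 32.1 CPM in controls and 1683, 1174 and 1049 CPM with TM, and the groups lay far apart. Its log2 fold change was 5.33 ± 0.22. Manf, a secreted factor kept in the ER by BiP, was at 97.9 to 107 CPM in controls and 1411 to 1984 CPM with TM (log2 4.01). Among the 15 largest rises were also Gsg1l, an auxiliary subunit of AMPA-type glutamate receptors (log2 4.66 ± 0.58, from 0.381 to 1.23 CPM to 8.39 to 30.3 CPM), Hapln4, a link protein of perineuronal matrix (log2 3.93), and Zfp9, a zinc finger gene (log2 3.68).

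Folding enzymes beyond the BiP system moved the same way with smaller medians. Of 19 disulfide isomerases and ER oxidases, 13 rose and 1 fell (median log2 0.94). Pdia4 was at 261, 203 and 184 CPM in controls and at 5406, 3773 and 3115 CPM with TM, with no overlap (log2 4.25). Pdia6 rose by 3.09 ± 0.19, Pdia3 by 2.44 ± 0.19 and the oxidases Ero1lb and Ero1l by 3.48 ± 0.19 and 2.45 ± 0.16 on the log2 scale. The member that fell was Tmx4, a transmembrane thioredoxin protein, from 85.6 to 114 CPM to 63.4 to 87.8 CPM, where the groups overlapped (log2 -0.43 ± 0.15; edgeR adjusted p = 0.0457), and it lost the call in 6 alternative settings. In the calnexin cycle, which holds glycoproteins until they fold, 9 of 10 genes rose and 0 fell (median 1.22). Calreticulin (Calr) rose by 3.10 ± 0.22 and calnexin (Canx), its membrane-bound counterpart, by 1.20 ± 0.15.

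The genes of the glycosylation pathway that TM blocks also rose. Dpagt1, the target of the drug, was at 23.9, 22.3 and 23.7 CPM in controls and 87.2, 57.8 and 51.8 CPM with TM. The lowest TM library was above the highest control, and number 1 was the highest. It rose 2.81-fold (log2 1.49 ± 0.19; edgeR adjusted p = 0.000558). Of 20 genes for synthesis of the lipid-linked glycan, 13 rose and 1, the polyprenol reductase Srd5a3, fell (median 0.65; Srd5a3 log2 -0.37 ± 0.12, with the call lost in 6 alternative settings). Of 12 subunits of oligosaccharyltransferase, which moves the glycan onto proteins, 11 rose (median 1.29). The catalytic subunits Stt3a and Stt3b rose by 1.83 ± 0.16 and 1.10 ± 0.15. The remaining subunit, Tusc3, was at 97.1 to 138 CPM in controls and 46.3 to 53.3 CPM with TM and fell by 1.24 ± 0.14 on the log2 scale. Of 11 genes of the hexosamine pathway, which makes the sugar donor, 5 rose and 2 fell (median 0.28), with its first enzyme Gfpt1 at 2.55 ± 0.18.

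Entry into the ER, disposal and export moved together. Of 22 genes of the translocon and signal peptidase, 21 rose and 0 fell (median 1.52), among them Sec61b at 1.79 ± 0.15 and the signal peptidase subunit Spcs1 at 0.46 ± 0.12 (edgeR adjusted p = 0.0158, and up to 0.0624 with 1 library left out). Of 25 genes of ER-associated degradation, which returns misfolded protein to the cytosol, 22 rose and 0 fell (median 0.71). Herpud1, a scaffold of that machinery, was at 85.2, 116 and 132 CPM in controls and 1371, 1237 and 1180 CPM with TM, with the groups far apart. It rose 11.4-fold (log2 3.51 ± 0.19; edgeR adjusted p = 2.01e-05). Its ubiquitin ligase Syvn1 and adaptor Sel1l rose by 3.32 ± 0.15 and 2.94 ± 0.19, and the mannose lectin Edem1 by 2.88 ± 0.17. Of 31 genes for COPII and COPI coats and their cargo receptors, which carry proteins between ER and Golgi, 26 rose and 0 fell (median 1.08), with Sec24d at 2.23 ± 0.13 and Sec23b at 1.88 ± 0.14. Of 15 ER calcium pumps and channels, 5 rose and 2 fell (median -0.21), and 3 rose without control number 1 or 3 or TM number 2. The pump Atp2a2 (SERCA2) rose by 2.01 ± 0.15, while Stim1, a sensor of ER calcium, and Itpr1, a release channel, fell.

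Of 11 genes for the sensors of the unfolded protein response and their transcription factors, 8 rose and 0 fell (median 1.35). Xbp1, spliced by IRE1, was at 68.9, 85.5 and 99.4 CPM in controls and 382, 558 and 563 CPM with TM, where number 1 was the lowest in both groups. It rose 5.93-fold (log2 2.57 ± 0.20; edgeR adjusted p = 6.24e-05), and gene counts do not separate its spliced from its unspliced form. Atf6 rose by 2.12 ± 0.13, the related Creb3l2 by 1.88 ± 0.13 and Ern1 by 1.45 ± 0.13. Eif2ak3, with 24.6 to 27.4 CPM in controls and 71.5 to 102 CPM with TM when scaled over these 6 libraries alone, rose 3.32-fold (log2 1.73 ± 0.15; edgeR adjusted p = 8.58e-05). Of 10 transcripts reported to be cleaved by IRE1, 0 rose and 9 fell (median -1.16). Among those, Scara3, a scavenger receptor, went from 25.5 to 33.3 CPM to 2.83 to 3.78 CPM (log2 -3.17 ± 0.18) and Pdgfrb from 42.1 to 48.1 CPM to 20.1 to 26.5 CPM (log2 -0.92 ± 0.13). Pdgfrb is also a marker of mural cells.

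Of 18 targets of PERK, ATF4 and CHOP, 15 rose and 0 fell, with a median of 0.98. Atf4 was at 243, 345 and 402 CPM in controls and 1105, 1189 and 1189 CPM with TM, with no overlap (log2 1.81 ± 0.19; edgeR adjusted p = 0.000186). Ddit3, which encodes the transcription factor CHOP, was at 128, 171 and 212 CPM in controls and 1502, 1128 and 1130 CPM with TM. Its number 1 library was the lowest control and the highest TM library. It rose 7.35-fold (log2 2.88 ± 0.22; edgeR adjusted p = 5.53e-05). Trib3, a pseudokinase induced by CHOP, was at 73.5, 74 and 98 CPM in controls and 247, 240 and 236 CPM with TM, and rose 2.95-fold (log2 1.56 ± 0.14; edgeR adjusted p = 9.14e-05). Ppp1r15a (GADD34), which recruits a phosphatase to eIF2 alpha, went from 210 to 453 CPM to 1102 to 1434 CPM (log2 1.90 ± 0.27). The glutathione-degrading enzyme Chac1 rose by 1.28 ± 0.23 and the secreted hormone genes Gdf15 and Fgf21 by 0.77 ± 0.22 and 1.02 ± 0.35, with Fgf21 no higher than 2.59 CPM in any library. With 1 library left out, Fgf21 lost its call in 4 fits and Gdf15 in 1, without TM number 2. The 3 members that did not pass the test were the cell-cycle inhibitor Cdkn1a (803 to 1129 CPM in controls, 824 to 1126 CPM with TM), the death receptor Tnfrsf10b and Ddit4. Number 1 was the lowest library for 16 of these 18 genes in controls and 15 of 18 with TM.

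Genes that supply amino acids and charge tRNAs rose nearly throughout. All 11 amino acid transporters tested rose (median 1.56), with Slc3a2, the shared heavy chain of several of them, going from 843 to 1158 CPM to 3116 to 4117 CPM (log2 1.75 ± 0.17). The cystine importer Slc7a11 rose by 1.59 ± 0.25 and the leucine importer Slc7a5 by 1.56 ± 0.18. Of 14 genes that make amino acids or carry one-carbon units, 13 rose and 0 fell (median 1.40), led among the enzymes named here by Aldh1l2 (2.36 ± 0.26) and including Shmt2 (1.49 ± 0.17), Asns (1.41 ± 0.18) and Psat1 (1.28 ± 0.14). Of 20 cytosolic aminoacyl-tRNA synthetases, 17 rose and 0 fell (median 1.03), for example Nars at 1.48 ± 0.18. Of 17 mitochondrial synthetases, 8 rose and 0 fell (median 0.34), and 5 rose without TM number 2. All these lists lay above the 25% of all genes that rose, and the mitochondrial synthetases did so by the smallest margin of the 4.

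Other parts of the translation machinery shifted by smaller amounts. Of 8 subunits of eIF2 and its exchange factor eIF2B, 5 rose and 0 fell (median 0.53), and of 30 other initiation and elongation factors 25 rose and 0 fell (median 0.53). The translation repressor Eif4ebp1 rose by 1.18 ± 0.14. Of 79 cytosolic ribosomal protein genes, 59 rose and 0 fell (median 0.54), although counts of these genes are uncertain because they have near-identical copies in the genome. Leaving out 1 library brought that number to between 41 and 61, and TM number 1 was the highest of the TM libraries for 71 of the 79. Of 12 noncoding Snhg and Gas5 RNAs, which host small nucleolar RNAs, 9 rose and 0 fell (median 1.16), with Gas5 going from 224 to 317 CPM to 519 to 644 CPM. Of 14 mitochondrial chaperones and proteases, 11 rose (median 0.72), including the protease Lonp1 (1.43 ± 0.13) and the chaperone Hspa9 (1.22 ± 0.16), and the protease Spg7 fell (-0.42 ± 0.11), though not with GC offsets or without control number 1. Of 31 proteasome subunits, 11 rose and 0 fell (median 0.19, between 6 and 13 with 1 library left out). Of 19 cytosolic heat shock chaperones, 6 were higher and 5 lower (median 0.07), and 3 lower without TM number 2. These shares were near the 25% and 27.7% of all genes.

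**Figure D3:**
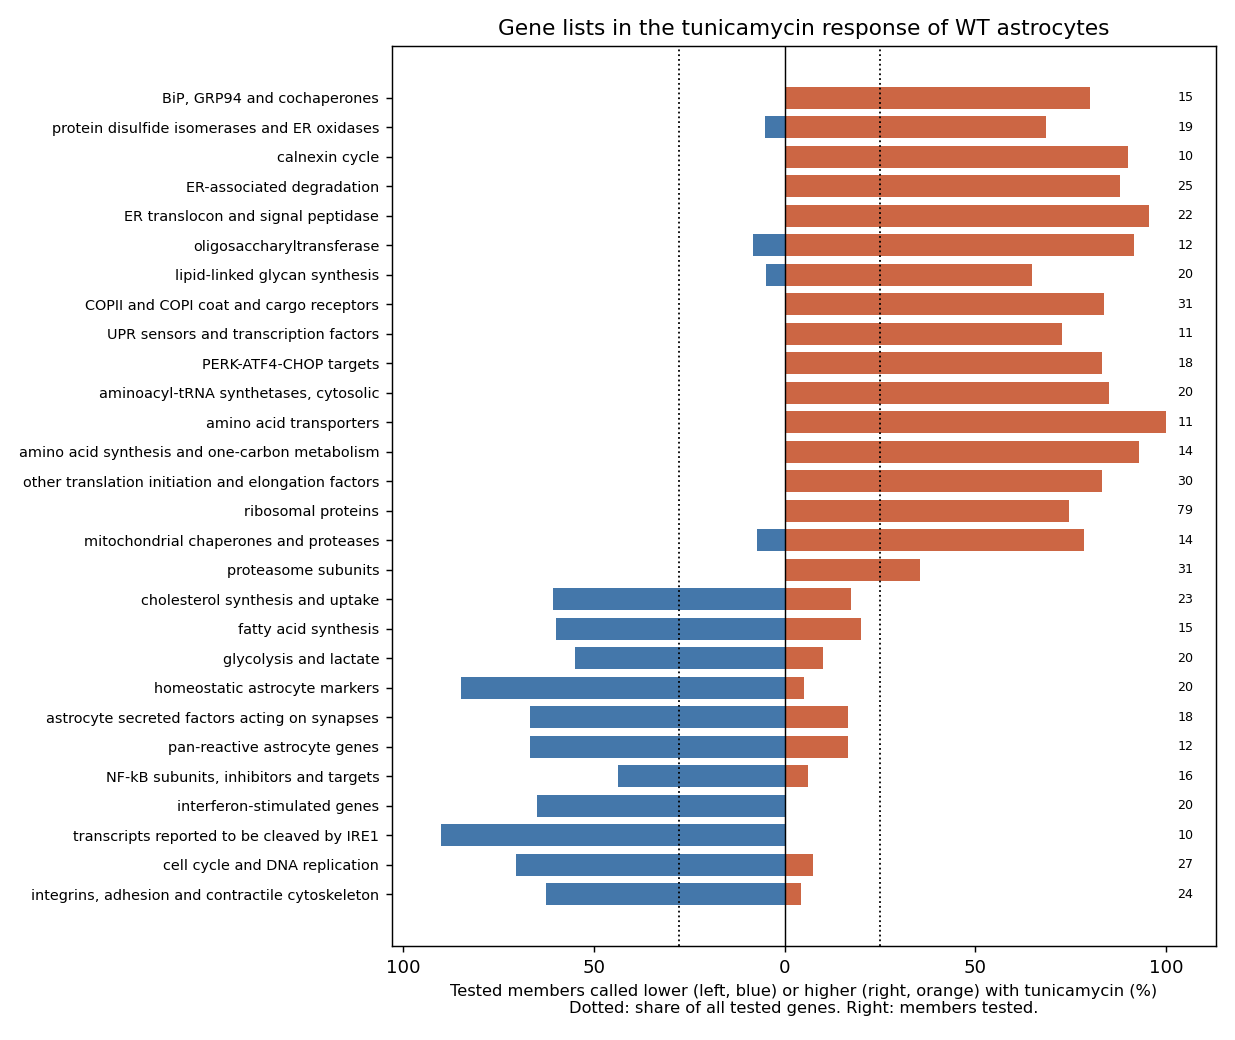
Share of tested members of 28 gene lists that fell (left, blue) or rose (right, orange) with TM in WT astrocytes, in % on the x axis, with dotted lines at the shares of all tested genes (27.7% and 25%). ER, amino acid and translation lists extend to the right, and lipid, astrocyte marker, interferon and cell cycle lists to the left.

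Most genes of cholesterol and fatty acid synthesis fell, and some rose. Hmgcs1, an early enzyme of cholesterol synthesis, was at 205, 181 and 173 CPM in controls and 109, 99.7 and 86.5 CPM with TM. The groups did not overlap, and number 1 was the highest in both. It fell by 0.92 ± 0.12 on the log2 scale (edgeR adjusted p = 0.000607). Of 23 genes for making or taking up cholesterol, 14 fell and 4 rose (median -0.87). The genes that rose were Mvd, which makes isopentenyl pyrophosphate (log2 2.01 ± 0.18, from 10.1 to 11 CPM to 35 to 53.6 CPM), and the sterol enzymes Ebp, Lss and Msmo1. Of 15 genes of fatty acid synthesis, 9 fell and 3 rose (median -0.92), where the desaturase Scd2 fell by 2.12 ± 0.28 and fatty acid synthase, Fasn, rose by 0.63 ± 0.09. Without control number 2 or 3, 1 of the 15 rose. Of 8 genes of cholesterol and lipid export, 4 fell and 0 rose (median -0.52), and 2 fell without TM number 2. Apoe, the main lipoprotein of astrocytes, was at 4170, 2398 and 2217 CPM in controls and at 1039, 599 and 496 CPM with TM, so that the highest TM library lay below the lowest control (log2 -2.04 ± 0.34; edgeR adjusted p = 0.00177).

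In glycolysis and lactate metabolism, 11 of 20 genes fell and 2 rose (median -0.83). Ldhb, the lactate dehydrogenase subunit B, fell from 799 to 1139 CPM to 116 to 201 CPM (log2 -2.60 ± 0.24), and the phosphofructokinase Pfkm by 2.13 ± 0.19. The genes that rose were hexokinase 2 (Hk2, log2 1.58 ± 0.23) and the glucose transporter Slc2a1 (log2 0.60 ± 0.15), the latter not called without control number 2. Of 29 nuclear genes of the respiratory chain, 0 rose and 11 fell. The number that fell was 4 without TM number 2 and 6 without control number 1 or 2 or TM number 3, a share below that of all genes, and 16 with the replicate block. None of the 13 genes encoded in mitochondrial DNA passed edgeR's test, and 0 had an adjusted p under 0.05. With the replicate number as a block 11 of them fell, without TM number 1 10 fell, and without the libraries numbered 1, an alternative chosen after seeing the data, 12 fell. Their summed level was 17870, 16640 and 11880 CPM in controls and 16900, 8982 and 8194 CPM with TM, where number 1 was within the range of the controls and the other TM libraries were below it.

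Most genes that define mature astrocytes fell, several of them by over 10-fold. Gfap, the astrocyte intermediate filament, was at 694, 749 and 385 CPM in controls and at 26.3, 46.2 and 21 CPM with TM. All TM libraries were far below all controls. The fall was 19.6-fold (log2 -4.29 ± 0.38; edgeR adjusted p = 9.77e-05). Aqp4, the water channel of astrocyte endfeet, was at 675, 510 and 323 CPM in controls and 47.7, 36.7 and 27 CPM with TM, and fell 13.6-fold (log2 -3.76 ± 0.32; edgeR adjusted p = 8.64e-05). Slc1a3 (GLAST), a glutamate transporter, was at 1136, 762 and 692 CPM in controls and 189, 173 and 174 CPM with TM, and fell 4.83-fold (log2 -2.27 ± 0.20; edgeR adjusted p = 9.11e-05). Neither gene had an overlap between the groups, and number 1 was the highest library of each group for both.

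Not every astrocyte gene followed. Slc1a2 (GLT-1), the other glutamate transporter, was at 69.6, 74.9 and 46.6 CPM in controls and at 98.8, 94.2 and 59.4 CPM with TM, with overlapping groups (log2 0.40 ± 0.23; edgeR adjusted p = 0.183, and 0.00138 with the replicate block). Gja1, the gap junction protein connexin 43, was at 326, 238 and 238 CPM in controls and 222, 224 and 222 CPM with TM (log2 -0.27 ± 0.14; edgeR adjusted p = 0.148, and 0.0604 with the block). Of the 20 homeostatic astrocyte markers tested, out of 22 listed, 17 fell and 1 rose (median -2.76). Aldh1l1, the folate enzyme used as an astrocyte marker, fell from 304 to 327 CPM to 16.8 to 19.1 CPM (log2 -4.14 ± 0.11). The potassium channel Kcnj10, the aldolase Aldoc and glutamine synthetase, Glul, fell by 3.40 ± 0.41, 2.96 ± 0.23 and 2.15 ± 0.11. The member that rose, Atp13a4, a cation-transporting ATPase, stayed at 13.6 CPM or below and lost its call without TM number 2 or 3. The summed level of the list was 6275, 4978 and 4091 CPM in controls and 1055, 1007 and 874.6 CPM with TM.

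**Figure D4:**
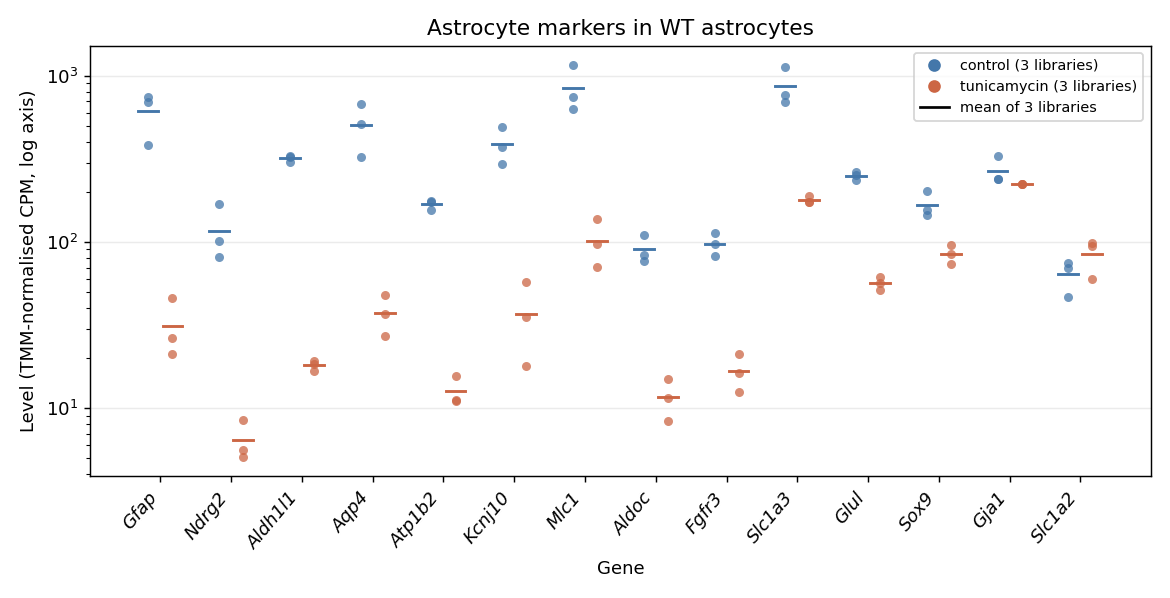
Level of astrocyte marker genes in each WT astrocyte library (y axis, TMM-normalised CPM on a log axis; x axis, gene), with control and TM libraries as separate points. Gfap lies at 385 to 749 CPM in controls and 21 to 46.2 CPM with TM, while the Slc1a2 and Gja1 points of the groups lie close together.

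The largest falls were not all astrocyte markers. Under the limits used for the largest rises, Cnmd fell the most (log2 -6.06 ± 0.46), from 12.8 to 29.1 CPM to 0.207 to 0.394 CPM. Sez6 came next (-5.49 ± 0.22, from 51.3 to 79.9 CPM to 1.24 to 1.59 CPM), followed by Igfbp5. Igfbp5, a secreted binding protein for insulin-like growth factors, was at 3140, 2650 and 2166 CPM in controls and at 69.3, 67.6 and 56.6 CPM with TM, with no overlap. It fell 41.1-fold (log2 -5.36 ± 0.20; edgeR adjusted p = 7.79e-06). Among the 15 largest falls were also Slc25a18, a mitochondrial glutamate carrier (log2 -5.17), Fgl2, a fibrinogen-like protein (-5.03), Bace2, a beta-secretase (-4.31, from 150 to 279 CPM to 8.44 to 12.6 CPM), and Prelp, a matrix proteoglycan (-4.27). Islr, a protein with leucine-rich repeats, was at 123 to 137 CPM in controls and 4.55 to 6.7 CPM with TM (-4.51). Of 11 genes of the insulin-like growth factor system, 6 fell and 1, the insulin receptor Insr, rose.

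Astrocyte proteins that act on synapses and pan-reactive genes were mostly lower, while the classes of reactive astrocytes differed. Of 18 secreted factors acting on synapses, 12 fell and 3 rose (median -0.97). The number that rose was 0 without control number 2 and 1 to 3 with each other library left out. The members that fell included Sparcl1 (hevin) at -2.89 ± 0.35, thrombospondin 1 (Thbs1) at -1.46 ± 0.14 and Sparc at -0.75 ± 0.17. Of 12 pan-reactive astrocyte genes, 8 fell and 2 rose (median -1.19). Serpina3n, a serine protease inhibitor, fell by 2.78 ± 0.40 and the filament protein vimentin (Vim) by 1.37 ± 0.14, whereas the protease inhibitor Timp1 and the hyaluronan receptor Cd44 rose by 1.13 ± 0.30 and 0.90 ± 0.23. Timp1 lost its call without control number 2. Lcn2, a secreted iron-binding protein used as a marker of reactive astrocytes, was at 678, 339 and 338 CPM in controls and 1217, 622 and 515 CPM with TM, and did not pass the test in edgeR's test (adjusted p = 0.113), but did once the fit was blocked (adjusted p = 7.55e-05) or number 1 was left out (adjusted p = 0.000405). It was higher with TM in each same-numbered pair. Of 11 genes of the A1 class of reactive astrocytes, 7 fell and 1, Fkbp5, rose, with its call lost without control number 1 or TM number 3. Of 11 of the A2 class, 3 fell and 2 rose (median -0.24), where 27.7% of all genes fell and 25% rose. The A2 genes that rose were the cyclooxygenase Ptgs2 (1.78 ± 0.49, not called without TM number 2 or 3) and the pentraxin Ptx3 (1.52 ± 0.15). The summed level of the A2 list was 871.2 to 1004 CPM in controls and higher with TM, at 1318 to 1671 CPM. Ptx3 alone, at 269.1 to 373.1 CPM in controls and 863.5 to 1029 CPM with TM, made up most of the sum with TM. Without Ptx3 the sums of the groups overlapped. These classes are names from earlier work and the samples were not sorted by them.

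Inflammatory genes differed by list, and the numbers called changed with the replicate block and with the libraries left out. Of 20 interferon-stimulated genes, 13 fell and 0 rose (median -1.49), and all 20 fell with the replicate block and all 20 without the libraries numbered 1. With 1 library left out the number was between 8 and 16, and it was 8 without control number 2 or 3 or TM number 2. Their summed level was 7430, 13340 and 13240 CPM in controls and 1801, 4757 and 5763 CPM with TM, and number 1 was the lowest library for all 20 in both groups. Ifit3, which encodes an antiviral RNA-binding protein and has near-identical copies, fell from 1598 to 2481 CPM to 181 to 500 CPM (log2 -2.55 ± 0.37), and the transcription factor Irf1 by 2.27 ± 0.33. All cultures received a lentivirus, and its part in the control levels was not tested. Of 16 subunits, inhibitors and targets of NF-kB, 7 fell and 1 rose (median -0.61). With the block, 10 fell and 4 rose, and without number 1, 9 fell and 4 rose. TM number 1 was the lowest TM library for all 16. Of 20 cytokines and chemokines, 5 rose and 2 fell (median 0.18), no larger a share than the 25% and 27.7% of all genes. With the block, 8 rose and 2 fell. The number that rose was 2 without control number 2 and 8 without TM number 1. The chemokine Ccl2, at 220 to 395 CPM in controls and 186 to 402 CPM with TM, did not pass the test.

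Among genes of growth and proliferation, 19 of 27 for the cell cycle and DNA replication fell and 2 rose (median -0.94). Mki67, present only in cycling cells, was at 5.42 to 13.7 CPM in controls and 2.17 to 5.35 CPM with TM (log2 -1.51 ± 0.43; edgeR adjusted p = 0.0189, and up to 0.0682 with 1 library left out). The genes that rose were the replication factors Pcna and Mcm7, by 0.40 ± 0.09 and 0.44 ± 0.11. Cyclin D1 (Ccnd1), among the abundant cyclins of these cultures, fell from 1632 to 2134 CPM to 727 to 880 CPM (log2 -1.21 ± 0.14). Of 7 Id and Hes regulators, which hold back differentiation, 6 fell, with Id3 at -3.14 ± 0.21. Of 14 members of the BCL2 family, 2 rose and 2 fell, and 3 rose and 5 fell with the block, while 0 to 3 fell with 1 library left out. Of 20 targets of NRF2, the regulator of oxidative stress genes, 6 rose and 6 fell (3 to 7 fell with 1 library left out), near the 25% and 27.7% of all genes. Of 21 secreted growth factors, 4 rose and 9 fell (2 to 5 and 6 to 8 with 1 library left out), with Vegfa higher by 0.90 ± 0.21.

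Matrix genes moved in both directions. Of 29 collagen and matrix genes, 14 fell and 3 rose (median -0.62), while their summed level was 4717, 5746 and 6174 CPM in controls and 7750, 8038 and 7711 CPM with TM, so that the sum was higher in every TM library. The genes that rose were Lama1, a laminin chain (log2 3.08 ± 0.16, from 10.7 to 13 CPM to 85.7 to 118 CPM), Serpinh1, the collagen chaperone HSP47 of the ER (1.54 ± 0.15, from 1023 to 1053 CPM to 2533 to 3630 CPM), and tenascin C, Tnc (1.35 ± 0.25). Without the chaperone gene Serpinh1 the sums of the groups overlapped. Of 24 genes for integrins, adhesion and the contractile cytoskeleton, 15 fell and 1, the focal adhesion protein zyxin (Zyx), rose (median -0.87). Zyx lost its call in 4 of the 6 fits with 1 library left out. Acta2 was at 976, 958 and 993 CPM in controls and 242, 259 and 306 CPM with TM and fell by 1.86 ± 0.12.

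Markers of other cell types moved as well, and their part in the list results was not tested. Of 12 microglia markers, 7 fell and 0 rose (11 fell with the block, 2 without control number 1 and 3 without TM number 2 or 3), and their summed level was 73.27 to 235.5 CPM in controls and 26.99 to 71.53 CPM with TM, with number 1 highest in each group. The microglial receptor Cx3cr1 was at 1.93 to 13.8 CPM in controls and at 0 in TM number 2. Of the 6 oligodendrocyte-lineage markers tested, out of 12 listed, 4 fell, and their sum went from 391.5 to 422.5 CPM to 99.46 to 102.7 CPM. Of the 7 fibroblast and mural cell markers tested, out of 12 listed, 2 fell (6 with the block, 4 without control number 1). Their sum went from 1059 to 1168 CPM to 287.9 to 396.5 CPM, and Acta2 alone made up most of it in both groups. Of 4 endothelial markers, 2 fell (sum 201 to 353.2 CPM in controls, 30.9 to 69.28 CPM with TM). Of the 6 ependymal and choroid plexus markers tested, out of 8 listed, 4 fell (sum 537.8 to 697.5 CPM and 145.9 to 189.3 CPM). Foxj1 was among them and alone made up most of the sum in controls. Of 9 radial glia and progenitor markers, 5 fell and 1, Tnc, rose (sum 9477 to 10460 CPM and 5400 to 7103 CPM). For neuron markers the sums of the groups overlapped, at 310.3 to 345.7 CPM in controls and 255 to 352 CPM with TM, and 2 of 11 rose and 6 fell (3 without control number 1 or 2 or TM number 2). Tubb3, a neuronal tubulin, was at 16.9, 22.4 and 22.4 CPM in controls and 86, 72 and 83.9 CPM with TM (log2 1.97 ± 0.14), and Nefm, a neurofilament, rose by 1.49 ± 0.34.

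Perk KO astrocytes differ from WT by the deleted PERK gene and by active Cre in place of ΔCre, which cannot be told apart. The response of WT astrocytes was next set against theirs, through the difference of the log2 fold changes over 12 libraries. The difference passed edgeR's quasi-likelihood test at an adjusted p under 0.05 for 5203 of 15114 genes (34.4%), of which 2211 were positive (14.6%) and 2992 negative (19.8%). In the KO astrocytes' own test, 841 of 15164 genes rose (5.55%) and 698 fell (4.6%). Fold changes of 1 kind of culture come from a fit scaled on its own libraries, and differences from a fit of both kinds together, so that a difference need not equal the 2 fold changes subtracted.

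By list, a larger rise in WT was common among genes of ER folding, disposal and export. The difference was positive for 14 of 25 genes of ER-associated degradation, 21 of 31 of the COPII and COPI coats (1 negative), 9 of 22 of the translocon, and 9 of 15 of the BiP and GRP94 group (2 negative). For Hspa5, the difference of log2 fold changes was 0.87 ± 0.25 (edgeR adjusted p = 0.0176), for Hsp90b1 1.72 ± 0.22 and for Sdf2l1 2.33 ± 0.27. Within that group 13 of 15 genes rose in KO astrocytes too, with a median of 1.27 against 3.34 in WT. The oligosaccharyltransferase subunits had medians of 1.29 in WT and 1.26 in KO, with 0 positive differences and 1 negative among 12. Creld2, with group means of 33.1 and 1342 CPM in WT controls and TM and 47.3 and 262.9 CPM in KO, differed by 2.87 ± 0.27 (edgeR adjusted p = 1.62e-05).

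Among the targets of PERK, ATF4 and CHOP, most of the smaller rises in KO astrocytes did not pass the test of the difference. It was positive for 3 of 18 targets, against 14.6% of all genes, and 8 of the 18 rose in KO astrocytes (median 0.66). For Ddit3 it was 1.22 ± 0.39 (edgeR adjusted p = 0.0305), and it lost the call in 8 of the alternatives that left out a library. For Trib3 the log2 fold changes were 1.56 in WT and 1.41 in KO, and for Chac1 1.28 and 1.29. For Atf4 the difference of 0.86 did not pass the test (edgeR adjusted p = 0.0647). The difference was positive for 12 of 20 cytosolic aminoacyl-tRNA synthetases, of which 3 rose in KO, 8 of 14 genes of amino acid synthesis, of which 4 rose in KO, and 20 of 30 initiation and elongation factors, of which 1 rose in KO. Slc3a2 went the other way, with log2 fold changes of 1.75 in WT and 2.50 in KO, and that difference passed the test. Whether lists differed from each other in these counts was not tested.

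Several lists that fell in WT astrocytes had negative differences. Homeostatic astrocyte markers had a negative difference for 14 of 20 genes and a positive one for 1, and their median was -0.32 in KO astrocytes against -2.76 in WT. Aqp4 differed by -3.59 ± 0.42 (edgeR adjusted p = 6.36e-05). Aldh1l1 had a log2 fold change of -4.14 in WT and -0.11 in KO. Igfbp5, with group means of 2699 and 66.5 CPM in WT controls and TM, was at 4061 and 3422 CPM in KO, and differed by -5.10 ± 0.24 (edgeR adjusted p = 2.69e-07). Of 16 NF-kB genes, 11 had a negative difference and 0 a positive one, and 10 rose in KO astrocytes (median 0.80) where 1 rose in WT. The interferon-stimulated genes were different: 16 of 20 fell in KO astrocytes (median -2.01), and the difference from WT passed the test for Ifi44 (positive) and Irf1 (negative) alone among the 20. In cholesterol synthesis and uptake, 3 differences were positive and 9 negative of 23, with Mvd at 2.01 in WT and -0.23 in KO.

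Against WT neurons under the same treatment, the difference of log2 fold changes passed the test for 3916 of 15712 genes (24.9%), with 1969 positive (12.5%) and 1947 negative (12.4%). Neurons and astrocytes were grown as separate cultures, so cell type and culture cannot be told apart. In the neurons' own test, 4203 of 15546 genes rose (27%) and 3852 fell (24.8%). The ER chaperones rose in both kinds of culture. The BiP and GRP94 group had medians of 3.34 in astrocytes and 3.60 in neurons, each from its own fit. In the fit of both, 2 of 15 differences were positive and 0 negative, with a median difference of 0.09, so the order of the medians is not that of the tested differences. The PERK-ATF4-CHOP targets were different, with 0 of 18 differences positive and 15 negative, and medians of 0.98 in astrocytes and 2.72 in neurons. Trib3 differed by -2.35 ± 0.19 (edgeR adjusted p = 1e-05) and Ddit3 by -1.40 ± 0.24 (edgeR adjusted p = 0.00128). The cytosolic aminoacyl-tRNA synthetases, also known ATF4 targets, differed for 2 of 20, both positive.

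Cholesterol genes had differences of the opposite sign. The difference was positive for 19 of the 25 listed genes of cholesterol synthesis and uptake and negative for 0. Of the 25, 24 fell in neurons (median -1.85). Hmgcs1 differed by 1.84 ± 0.15 (edgeR adjusted p = 1.19e-05). Of 31 proteasome subunits, 25 differences were positive, with 18 lower in neurons. Tubb3 rose in astrocytes and fell in neurons, with log2 fold changes of 1.97 and -1.38 in the separate fits (difference in the fit of both 3.53 ± 0.19; edgeR adjusted p = 6.21e-07). Homeostatic astrocyte markers fell in the neuron cultures as well, 18 of the 22 listed (median -1.41), and for Gfap the difference was -2.80 ± 0.39 (edgeR adjusted p = 0.000343).

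**Figure D5:**
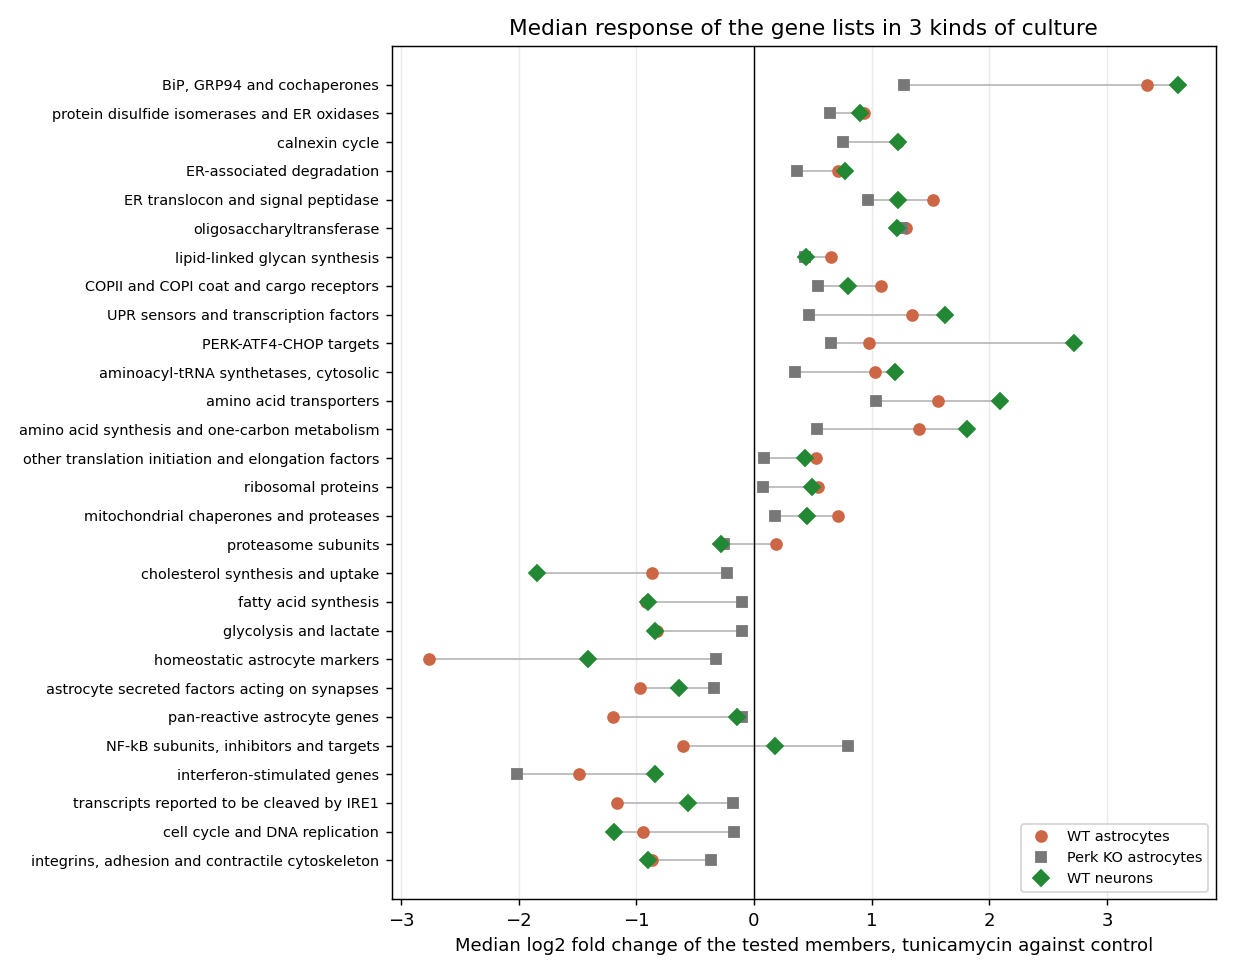
Median log2 fold change with TM (x axis) of the tested members of 28 gene lists (y axis) in WT astrocytes (orange circles), Perk KO astrocytes (grey squares) and WT neurons (green diamonds). For homeostatic astrocyte markers the medians are -2.76, -0.32 and -1.41, and for PERK-ATF4-CHOP targets 0.98, 0.66 and 2.72, in that order.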

How the data were processed

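RNA-seq of total RNA was analysed in 6 WT astrocyte libraries, with 6 Perk KO astrocyte and 6 WT neuron libraries for comparison. The authors deposited raw read counts per gene, made with fastp, HISAT2 and featureCounts on GRCm38.p6 per the submitters' processing notes. Tool versions, annotation release and strand setting are not given in the sources used here, and the kit named in the labels does not mark strand. The log2 fold changes and adjusted p-values in the deposited table come from DESeq2, per the submitters' processing notes, and gene lengths are those of the file headers. Of 30174 genes over the 3 tables used, 8779 were not listed in at least 1 table and were entered there as 0, and 137 of these had a mean of 10 counts or more.

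Genes with a mean of 10 or more counts were tested with edgeR 4.0.16 (R 4.3.3, quasi-likelihood test, TMM scaling, Benjamini-Hochberg adjustment over all genes tested, threshold 0.05), with 4 residual degrees of freedom for the response and 8 for differences between responses. CPM values are TMM-scaled over the 6 WT astrocyte libraries, except for the Eif2ak3 check and group means, which are scaled over 12. The SE was derived from the log2 fold change and the F statistic. The scripts were tested on simulated data. Alternatives were no count filter, DESeq2 1.42.0 and its size factors, 20 bins of transcript GC content, a fit blocked on the replicate number, and fits that left out 1 library at a time. The 17 fixed genes and 60 gene lists were chosen with earlier results of these data known. Further named genes were the 15 largest changes in each direction (mean of at least 100 counts, no overlap), 6 differences in each direction, up to 4 list members with the smallest p and members that went against their list. Other genes were named after their values were seen, and 1 of the ranked differences is not reported here.

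Deviations from the group means correlated between same-numbered control and TM libraries at 0.554, 0.295 and 0.422 in WT astrocytes and 0.476, 0.305 and 0.447 in KO astrocytes, so the numbers pair these libraries. In WT neurons they were 0.176, -0.218 and -0.188. The pairing is read from the data, since the labels give the numbers only. The main fits did not use it, and only the fits with the replicate block did.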

Additional observations from a re-analysis of the deposited data

Results flagged for a closer look

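The genes below had a tunicamycin response in WT astrocytes that differed from that in Perk KO astrocytes by the test of the difference itself (log2 units ± SE, edgeR's quasi-likelihood test over 12 libraries). For the fixed ER and stress genes the difference was 0.869 ± 0.248 for Hspa5 (adjusted p = 0.0176), 1.717 ± 0.22 for Hsp90b1 (adjusted p = 0.000133) and 2.325 ± 0.265 for Sdf2l1 (adjusted p = 5.68e-05). It was 1.306 ± 0.278 for Herpud1 (adjusted p = 0.00368), 0.929 ± 0.151 for Dnajb9 (adjusted p = 0.000681), 1.219 ± 0.393 for Ddit3 (adjusted p = 0.0305) and 0.748 ± 0.218 for Eif2ak3 itself (adjusted p = 0.0192). For the astrocyte gene Aqp4 it was -3.589 ± 0.416 (adjusted p = 6.36e-05). The 6 largest positive differences were 3.824 ± 0.642 for Derl3, 2.964 ± 0.508 for the peroxisomal oxidase Acox2, 2.877 ± 0.499 for the zinc knuckle gene Zcchc12, 2.869 ± 0.272 for Creld2, 2.536 ± 0.599 for the actin-binding protein Avil and 2.377 ± 0.269 for Pdia4. Acox2 had group means of 6.37 and 45.1 CPM in WT controls and TM and 5.80 and 5.24 CPM in KO. Zcchc12 had 14.6 and 121.8 CPM in WT and 25.2 and 28.5 CPM in KO. The 6 largest negative differences were -5.823 ± 0.562 for Fgl2, -5.535 ± 0.61 for 4932443I19Rik, -5.181 ± 0.328 for the sulfotransferase Sult1a1, -5.095 ± 0.238 for Igfbp5, -4.82 ± 0.298 for the secreted protein gene Crispld2 and -4.765 ± 0.484 for Cnmd, which encodes chondromodulin. Sult1a1 and Crispld2 fell in WT and rose in KO astrocytes, the latter from 7.41 to 0.575 CPM in WT and from 4.44 to 9.83 CPM in KO.

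Differences between WT astrocytes and WT neurons passed the same test for 7 fixed genes. They were 0.841 ± 0.229 for Sdf2l1 (adjusted p = 0.0179), 0.993 ± 0.232 for Xbp1 (adjusted p = 0.00822), -1.401 ± 0.237 for Ddit3 (adjusted p = 0.00128) and -2.351 ± 0.188 for Trib3 (adjusted p = 1e-05). For Gfap the value was -2.803 ± 0.385 (adjusted p = 0.000343), for Slc1a2 1.685 ± 0.33 (adjusted p = 0.00299) and for Hmgcs1 1.844 ± 0.153 (adjusted p = 1.19e-05). The 6 largest positive differences were 4.048 ± 0.584 for Gsg1l, 3.708 ± 0.666 for the cadherin gene Cdh8, 3.654 ± 0.306 for the scaffold gene Grasp, 3.53 ± 0.187 for Tubb3, 3.423 ± 0.369 for Mlip and 3.357 ± 1.111 for Rnf181, which was 0.917 without neuron control 1 (edgeR adjusted p = 0.152) and lost its call in 12 settings. Of the 6 largest negative ones, 5 were -6.231 ± 0.415 for the linker histone Hist1h1d, which has near-identical copies, -4.496 ± 0.572 for D130043K22Rik, -4.478 ± 0.775 for Ly6h, -4.194 ± 0.246 for Sez6 and -4.179 ± 0.585 for Rsph4a. These genes were ranked by size among genes called in astrocytes, so the ranking and the test share their data.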

How the results depend on the processing

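The number of genes called in the response (7859) was 7723 without a count filter, 7914 with DESeq2's size factors, 8073 with DESeq2, 7718 with GC offsets, 9795 with the replicate block and 9784 with both. It was 6185 to 8223 with 1 library left out. Without both libraries numbered 1, a choice made after seeing the data, 8382 were called and 93.28% of the original calls were kept. Between 46.17% and 49.64% of the calls were higher in these settings. With the block the difference from KO astrocytes was called for 7449 genes and that from neurons for 4801, where the numbers do not pair the neuron libraries. The block of the KO fit joined WT and KO libraries of the same number, and whether the numbers pair libraries across genotypes was not tested. Of 312 genes named by rule, 302 were called in the response, 32 lost the call in at least 1 setting, and none turned direction. Without both libraries numbered 1, Srd5a3, Nagk and Hspa1a lost the call. Genes named after their values were seen, and differences between responses, are not in these counts. The difference from KO for Eif2ak3 lost its call without KO control 2 (0.66, edgeR adjusted p = 0.0522) and without the WT libraries numbered 1 (0.585, edgeR adjusted p = 0.056). That from KO for Ddit3 lost it in more settings, among them leaving out KO control 3 (1.016, edgeR adjusted p = 0.0786) or the WT libraries numbered 1 (0.902, edgeR adjusted p = 0.101). That from neurons for Rnf181 lost it in 12 settings, among them the block (2.262, edgeR adjusted p = 0.139) and leaving out neuron control 1 (0.917, edgeR adjusted p = 0.152). That for Sdf2l1 lost it without astrocyte control 1 (0.717, edgeR adjusted p = 0.0575) and without both astrocyte libraries numbered 1 (0.558, edgeR adjusted p = 0.0722). The response correlated with transcript GC content across 14890 genes (Spearman rho -0.149), which are not independent replicates. With 3 libraries a group, genes near 10 counts are measured too loosely for small changes to pass.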
